A study of Danio rerio with 12 samples.

Results

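The bZIP transcription factors that bind the D-box were followed in the zebrafish pineal gland through 2 daily cycles of constant darkness. They comprise the repressor genes nfil3-5 and nfil3-6 and the activator genes dbpa, tefa and tefb. The members are 1 probe set each of nfil3-5, nfil3-6 and dbpa, together with every probe set that the annotation of the array assigns to nfil3, nfil3-2, dbpb, tefa, tefb or hlfa. This gave 5 of the 8794 genes named on the array, with 7 of the 15502 probe sets other than controls, namely the 3 just named, 2 of tefa and 2 of tefb. No probe set was annotated to nfil3, nfil3-2, dbpb or hlfa. The probe set of dbpa carries no gene in the annotation used here, and its name comes from the study.

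The fish were adults of the line Tg(aanat2:EGFP)Y8, males and females between 0.5 and 1.5 years old, in which regulatory regions of aanat2 drive green fluorescence in the pineal gland so that the gland can be found under the microscope. They were raised in 12 h of light and 12 h of darkness and moved to constant darkness for sampling, so all groups share the line, the age range and the lighting and are labelled by circadian time (CT) and day. Each of the 12 arrays was hybridized with RNA pooled from 12 glands, taken every 4 h for 48 h. Sampling began at CT14 and ran through CT18, CT22, CT2, CT6 and CT10, once in the first cycle (replicate 1) and again in the second (replicate 2). Each CT thus has 2 arrays from different days, whose spread joins differences between pools of fish, days and hybridizations.

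PAR bZIP factors (DBP, TEF and HLF) activate transcription from the D-box, a short promoter element, and NFIL3, also called E4BP4, binds the same element and represses it. In mammals these opposed kinds of factor compete in a loop beside the core clock, and D-boxes lie in genes of the period, Rev-erb and Ror families. Zebrafish carry several nfil3 copies and paired copies of the activators, and in this species D-boxes also serve the induction of genes by light.

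Values are intensities of a probe set on an arbitrary scale, after log2 transformation and quantile normalization, given on the linear scale. They are compared between arrays within a probe set and not between probe sets. Of the 7 members 6 passed the filter on dim probe sets, which kept 11625 probe sets, and the second probe set of tefb did not. Of the markers of pineal photoreceptors 9 of 16 were measured and all 9 passed the filter, among them tph2 (2624 to 6010) and exorh (695 to 2203). The array CT6 replicate 2 stood apart. Its mean correlation with the other arrays was 0.814, against 0.865 to 0.907 for the rest, and 10 of the 11 skin markers were highest on it. The summed intensity of the skin markers was 22800.1 there and 831 to 10804 elsewhere. That of the 6 bone and connective tissue markers was 16383 there and 1251 to 8848 elsewhere. That of the pineal photoreceptor markers was 14624 there and 19437 to 26489.6 elsewhere. Of these 9 markers 4 were lowest and 0 highest on this array, and exorh was 1393 there. The sum weighs bright genes most, and the list holds aanat2, which changed with time of day (fold 6.38, adjusted p = 0.0259, limma). Other arrays were uneven too. The skin sum was 10804 on CT14 replicate 1 and 831 on CT18 replicate 2. Neuron markers summed to 6094 to 15403 and glia markers to 4927 to 15448, both highest on CT18 replicate 2. Muscle (383 to 2244) and red blood cell markers (2640 to 9337) varied as well, and the part of these lists was not tested. The last 4 arrays also had brighter hybridization controls, with a geometric mean of 1076 to 1917 against 666 to 896 on the first 8. In pooled tissue, fewer cells of a type and less RNA per cell cannot be told apart.

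The activator dbpa and the repressor nfil3-5 had large daily changes at opposite times of the cycle. dbpa, the zebrafish copy of the albumin D-box binding protein, is a PAR bZIP activator. Over CT14, CT18, CT22, CT2, CT6 and CT10 its intensity was 1274, 2629.8, 1272, 617, 295 and 220.4 in the first cycle, and 928, 3067, 1533, 989.8, 310 and 392 in the second. Both CT18 arrays lay above all others, and the 4 arrays of CT6 and CT10 lay below all others. By mean level the order was CT18 (2848 ± 309), CT22 (1403 ± 185), CT14 (1101 ± 244), CT2 (803 ± 264), CT10 (306 ± 121) and CT6 (302 ± 10.7) (SD, n = 2 arrays each). CT22 and CT14 (only by 1272 against 1274), CT14 and CT2, and CT10 and CT6 overlapped. With 2 arrays each this cannot tell whether the levels of these neighbours differ. The fit of a 24-h cosine gave a peak at CT19.2 (SE 0.364 h), a log2 peak-to-trough change of 3.23 (SE 0.308) and a fold of 9.38 (adjusted p = 0.00102, limma).

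nfil3-5, a repressor of the E4BP4 type, had intensities of 199.7, 46.1, 120.4, 285, 3808 and 1748 over the same times of the first cycle, and of 609, 169, 145, 656, 1911 and 1986 in the second. The 4 arrays of CT6 and CT10 lay above all others, and those of CT18 and CT22 below all others. The mean levels ran in the order CT6 (2859.7 ± 1341), CT10 (1867 ± 168), CT2 (470.03 ± 262), CT14 (404 ± 289), CT22 (133 ± 17.6) and CT18 (108 ± 86.8) (SD, n = 2 each). CT6 and CT10 overlapped, as did CT2 with CT14 and CT22 with CT18. The fitted log2 change was 5.08 (SE 0.505), or 33.9-fold, and the peak was fitted at CT7.56 (SE 0.379 h, adjusted p = 0.00125, limma). In the first cycle the intensity at CT6 was 13.4 times that at CT2, and in the second 2.92 times. The lower CT6 value is that of the array with high skin markers, whose part in it was not tested, and without that array the fitted change was 5.19 (adjusted p = 0.0014, limma).

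On the deposited labels nfil3-6, the other measured E4BP4 copy, was high in the late night and early day. Its intensities were 353, 1386, 1301, 1326, 1418 and 450.4 in the first cycle, and 497, 1019.7, 2154, 1323, 655 and 473 in the second. The 4 arrays of CT10 and CT14 were the lowest in both cycles, between 353 and 497, and the other 8 lay between 655 and 2154. In order of the means, the levels were CT22 (1728 ± 603), CT2 (1325 ± 2.57), CT18 (1203 ± 259), CT6 (1036 ± 539), CT10 (462 ± 16.3) and CT14 (425 ± 102) (SD, n = 2 each). Among the first 4 of these each time overlapped with the next, as did CT10 with CT14. The first cycle was a plateau, with intensities of 1301 to 1418 on 4 successive arrays, whereas in the second CT22 stood above the rest. The CT6 value of the second cycle, 655, is from the array with high skin markers, whose part in it was not tested. Between the cycles the 24-h terms of nfil3-6 did not differ at the threshold (adjusted p = 0.864, limma). The fitted change was 2.05 on the log2 scale (SE 0.314), or 4.14-fold, and the peak was fitted at CT23.5 (SE 0.585 h, adjusted p = 0.0259, limma).

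The call of nfil3-6 was less firm than those of the other pair. With each array left out in turn, dbpa and nfil3-5 passed the test 12 of 12 times, with adjusted p at most 0.00522 and 0.00783 (limma). nfil3-6 passed 5 times and was lost without CT14 replicate 1, CT2 replicate 1, CT10 replicate 1, CT14 replicate 2, CT18 replicate 2, CT22 replicate 2 or CT10 replicate 2, with adjusted p up to 0.0908. Its fitted change stayed between 1.87 and 2.21 in these fits and its peak between CT22.9 and CT23.9.

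tefa, the zebrafish copy of thyrotroph embryonic factor, is another PAR bZIP activator. The brighter of its 2 probe sets had intensities of 833, 1331, 827, 818, 418 and 488 in the first cycle and of 669, 1259.9, 1419, 679.9, 985 and 639 in the second. It was highest at CT18 in the first cycle and at CT22 in the second, and the arrays of neighbouring levels overlapped throughout the order of the means, CT18, CT22, CT14, CT2, CT6 and CT10. The fitted change was 1.14 on the log2 scale (SE 0.296), a fold of 2.20. Its fitted peak lay at CT19.9 (SE 0.993 h), and the rhythm did not pass the test (adjusted p = 0.290, limma).

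The value of tefa at CT6 differed between the cycles, 985 in the second and 418 in the first. The first of these comes from CT6 replicate 2. Without that array the fitted change of tefa was 1.45 with a peak at CT19.5, and it passed the test (adjusted p = 0.0220, limma), whereas it did not without any other single array. In that fit 100 of the 11625 probe sets passed, 0.86%, 4 of the 6 tested members among them. Without the last 4 arrays tefa also passed, just under the threshold (change 1.48, adjusted p = 0.0495, limma), while nfil3-6 did not (adjusted p = 0.0943), and 1.08% of all probe sets did. Skin, connective tissue and immune markers were high on CT6 replicate 2, with summed immune markers of 17356 there and 2358 to 7795 elsewhere. The photoreceptor, red blood cell, muscle, neuron and glia sums were lowest on that array. The part of these differences in the result of tefa was not tested.

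The second probe set of tefa was dim, with intensities of 5.97 to 73.4. It had its highest value at CT18 of the first cycle and its lowest at CT10 of the second. The fit put its peak at CT19.5 with a fold of 3.14, or 1.66 with an offset of 32, and it did not pass the test (adjusted p = 0.552, limma). tefb, the paralog of tefa, was dim on both probe sets. The probe set that was tested ranged between 6.78 and 72.0, with overlapping arrays at all neighbouring levels and a fitted fold of 1.36 (adjusted p = 0.951, limma), and the other, which did not pass the filter, between 4.44 and 47.0. At these intensities no daily change of tefb was detectable. In all, 3 of the 6 tested members passed the 24-h test, dbpa, nfil3-5 and nfil3-6, against 60 of 11625 probe sets, 0.516%. Taking 1 probe set a gene, the median log2 change of the 5 genes was 2.05 and that of all tested probe sets 0.487, which is a description of genes chosen with earlier results known.

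**Figure D1:**
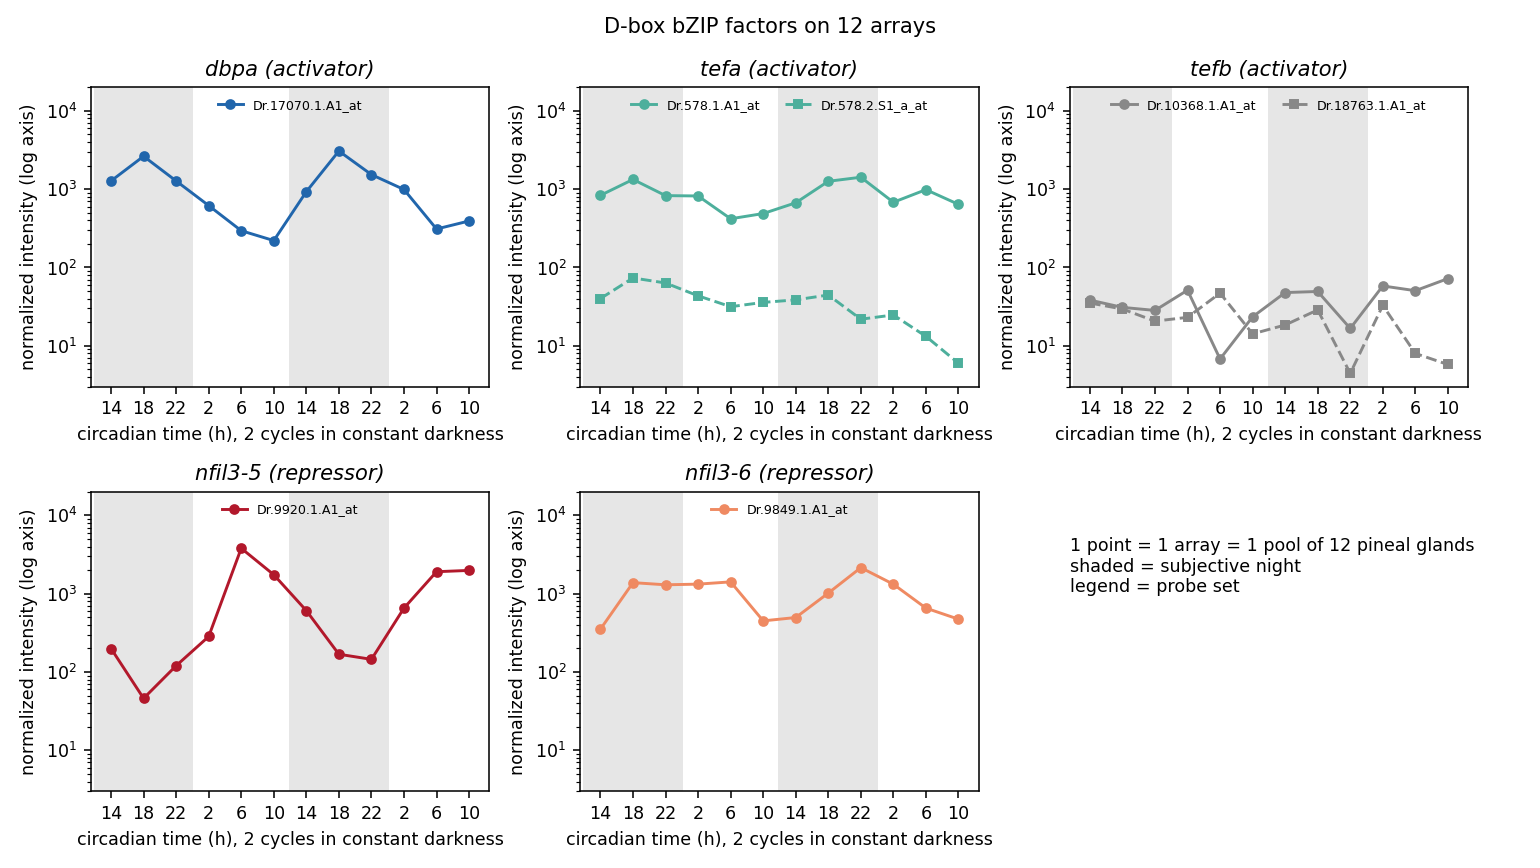
Normalized intensity (log axis) against circadian time (h) over 2 cycles of constant darkness, 1 panel for each gene and 1 line for each probe set, where each point is 1 array of 12 pooled pineal glands and the subjective night is shaded. dbpa is highest on both CT18 arrays (2629.8 and 3067) and nfil3-5 on the CT6 and CT10 arrays (1748 to 3808), while tefb and the second tefa probe set stay below 100.

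**Figure D2:**
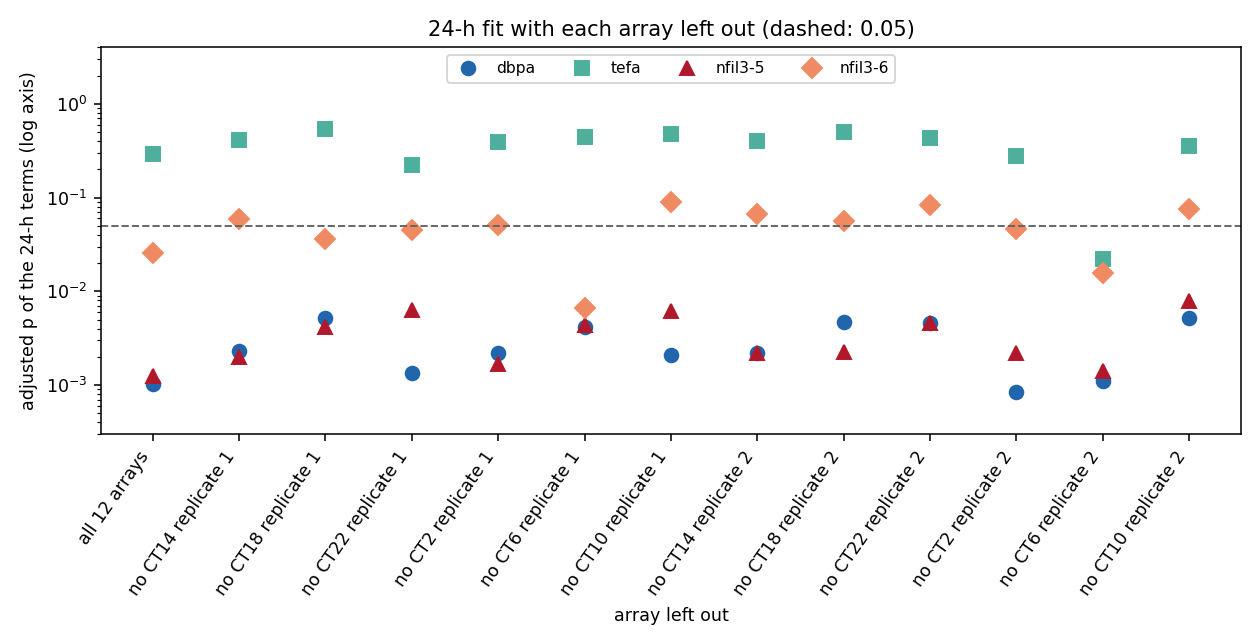
Adjusted p of the 24-h terms from limma (log axis) with all 12 arrays and with each array left out, for dbpa, tefa (brighter probe set), nfil3-5 and nfil3-6, and a dashed line at 0.05. dbpa and nfil3-5 lie below the line in every fit, nfil3-6 on both sides of it, and tefa below it only without CT6 replicate 2 (0.0220).

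The scoring by Fourier analysis placed the members in a similar order. The g-factor is the share of the power of a profile that lies at the period of 24 h. On these evenly spaced arrays it equals the share of the variance that the same 24-h cosine fits, so the order adds no separate support. It was 0.909 for dbpa (rank 7 of 11625) and 0.889 for nfil3-5 (rank 9). Both lay in the list of 56 probe sets with an estimated true-positive rate of 90%, which holds 0.482% of all tested and begins at 0.807. nfil3-6 had 0.792 (rank 69) and lay just outside this list. The brighter probe set of tefa had 0.577 (rank 552), the dimmer 0.374 and tefb 0.0297.

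The peak times were then compared directly, in joint fits of 2 probe sets over the same arrays, for 6 pairs of the 4 brighter members. The peak of dbpa followed that of nfil3-5 by 11.7 h (95% interval 10.3 to 13.02 h), so an exact opposition of 12 h lies within the interval. The peak of tefa followed that of nfil3-5 by 12.4 h (10.0 to 14.7 h). The activators did not differ detectably from each other in time, with tefa 0.70 h after dbpa (-1.68 to 3.08 h). A shift of up to 3 h between them thus remains within the interval. The peak of tefa comes from a rhythm that did not pass the 24-h test (adjusted p = 0.290, limma).

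nfil3-6 was not in opposition to the activators. Its peak came 4.27 h after that of dbpa (2.53 to 6.01 h) and 3.57 h after that of tefa (0.62 to 6.51 h). The peak of nfil3-5 came another 8.07 h after that of nfil3-6 (6.13 to 10.0 h), so the interval of the difference between the measured repressor genes did not include 0 h. Over the circadian day the fitted order was dbpa, tefa, nfil3-6 and nfil3-5, where the rhythm of tefa was not called and its place after dbpa is undetermined. With each array left out, the difference between dbpa and nfil3-5 ranged from 11.3 to 12.0 h, that between nfil3-6 and dbpa from 3.64 to 4.69 h, and that between nfil3-5 and nfil3-6 from 7.64 to 8.81 h. In the study's RNA-seq of other fish the peak of nfil3-6 lay nearer to that of nfil3-5 than to that of dbpa. This is unlike the fits here, and the cause was not tested. In earlier data on embryonic pineal glands that the study lists, the peak of nfil3-6 lay nearer to that of dbpa. There nfil3-6 was followed in light and dark cycles, and dbpa and nfil3-5 in constant darkness.

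The size of the fitted daily change was compared in the same way. Background and response can differ between probe sets and compress their changes unequally, so these are differences between signals of probe sets, and this limit was not tested. On the log2 scale that of dbpa was smaller than that of nfil3-5 (difference -1.86, 95% interval -3.40 to -0.31), and that of tefa was smaller than that of nfil3-5 (difference -3.95, -5.27 to -2.62). The change of tefa was also smaller than that of dbpa (difference -2.09, -3.001 to -1.19). Among the repressor genes the signal of nfil3-5 changed more than that of nfil3-6 (difference 3.04, 1.35 to 4.72). The signal of nfil3-6 changed less than that of dbpa by an interval that ends near 0 (difference -1.18, -2.29 to -0.07), and its difference from tefa had an interval that includes 0 (difference 0.91, -0.20 to 2.02).

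**Figure D3:**
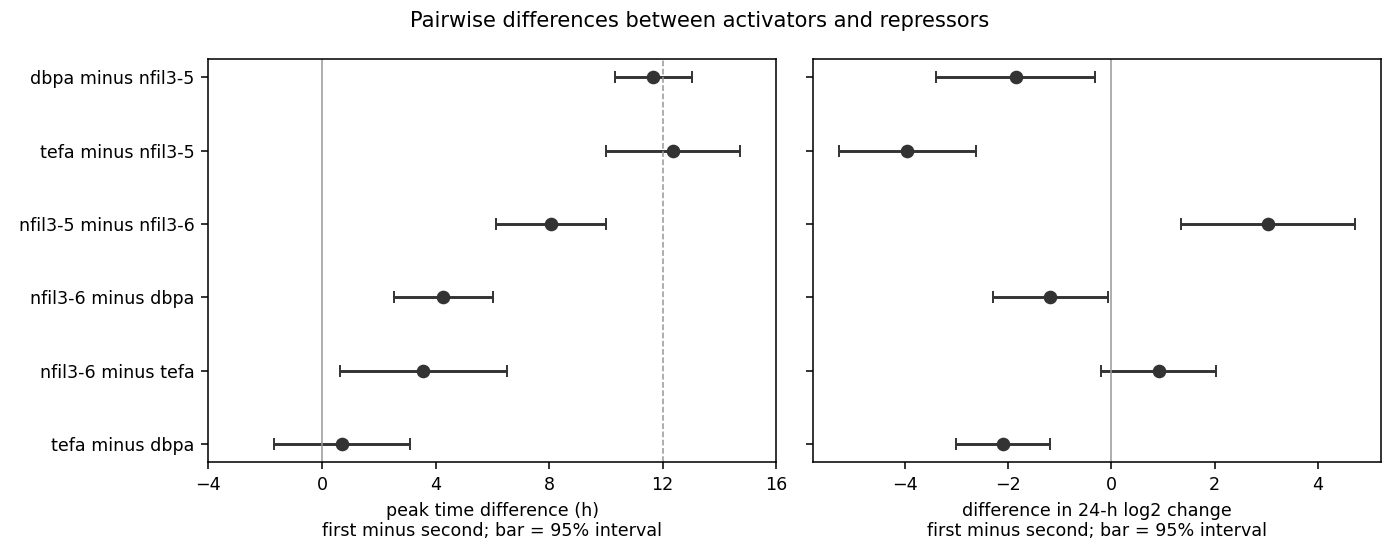
Differences in fitted peak time (h, left) and in fitted 24-h log2 change (right) between 2 members, first minus second, with 95% intervals from the joint fit over 12 arrays, a solid line at 0 and a dashed line at 12 h. dbpa and tefa lie 11.7 and 12.4 h after nfil3-5, and the interval of tefa minus dbpa includes 0 h. The rhythm of tefa did not pass the 24-h test.

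The same profiles of dbpa and nfil3-5 were also described on single arrays as the ratio of their intensities. A uniform scaling of an array leaves this ratio as it is, but the quantile normalization used here can change it. The ratio is made of the values already fitted above and adds no separate support for their opposition. Given as log2 and centred on its mean over the 12 arrays, the ratio of dbpa to nfil3-5 was 1.83, 4.99, 2.55, 0.27, -4.54 and -3.83 in sampling order through the first cycle, and -0.24, 3.34, 2.55, -0.25, -3.47 and -3.19 in the second. It was above its mean at CT18 and CT22 and below it at CT6 and CT10 in both cycles. The fitted change was 8.31 on the log2 scale, a fold of 317, peaking at CT19.4 with a g-factor of 0.940. The fold rests on low values of nfil3-5, whose background is unknown, and was 209 with an offset of 32 added to the intensities before log2. The ratio of dbpa to nfil3-6 changed less, by 2.97 (a fold of 7.85), peaking at CT16.7 with a g-factor of 0.802. It ran between -2.15 at CT6 and 1.97 at CT14, both in the first cycle. These are ratios of RNA signals, and protein was not measured.

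**Figure D4:**
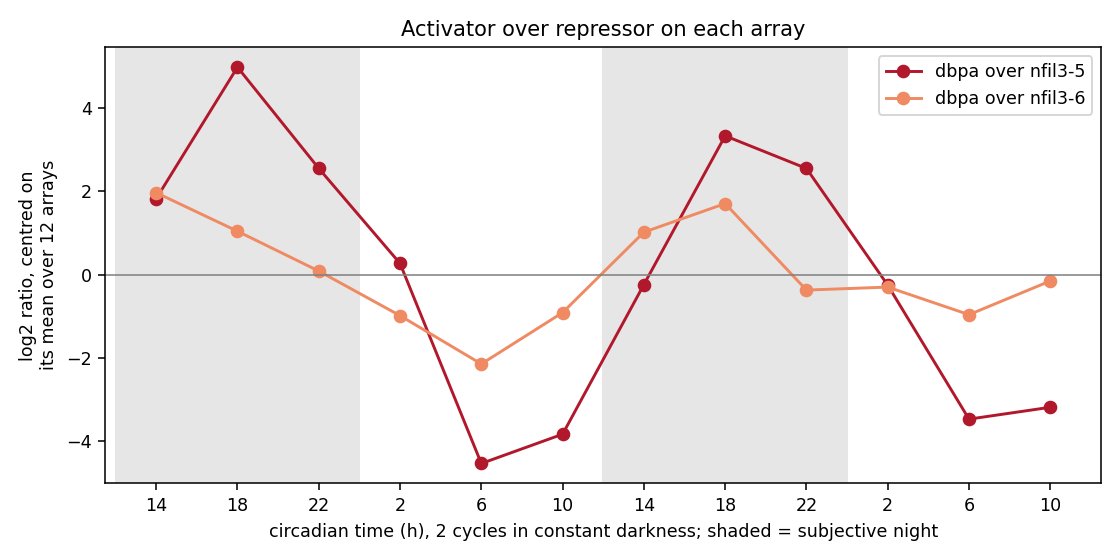
Log2 ratio of dbpa to nfil3-5 and of dbpa to nfil3-6 on each array, centred on the mean over 12 arrays, against circadian time (h) over 2 cycles, with the subjective night shaded. The first ratio runs between 4.99 at CT18 and -4.54 at CT6 of the first cycle, and the second between 1.97 and -2.15.

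Contrasts that assume no cosine shape gave the following, with night, day, dawn and dusk as the deposited labels place them. In the subjective night (CT14, CT18 and CT22) dbpa had a median intensity of 1397 (928 to 3067), against 349 (220.4 to 989.8) in the subjective day (CT2, CT6 and CT10). The difference of the log2 means was 1.99 (SE 0.189, adjusted p = 0.00235, limma), a fold of 3.96, and it was called with each array left out. The groups overlapped only in that CT14 replicate 2 (928) lay below CT2 replicate 2 (989.8). nfil3-5 had a median of 157 (46.1 to 609) in the night, against 1828 (285 to 3808) in the day. The difference was -3.02 (SE 0.380, adjusted p = 0.0150, limma), and the call was lost without CT22 replicate 1, CT10 replicate 1, CT22 replicate 2 or CT10 replicate 2 (adjusted p up to 0.0899).

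Neither nfil3-6 (difference 0.17, adjusted p = 0.930) nor tefa (0.66, adjusted p = 0.707, limma) passed this contrast. dbpa was thus the 1 member among the 11 probe sets higher in the night, 0.0946% of those tested, and nfil3-5 the 1 member among the 5 lower in the night, 0.043%. Where arrays were centred on their medians instead, the split was 11 higher and 2 lower.

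The contrast of the hours around dawn (CT22 and CT2) with those around dusk (CT10 and CT14) picked out nfil3-6. Its intensities were 1301, 1326, 2154 and 1323 around dawn, against 450.4, 353, 473 and 497 around dusk, without overlap. The difference was 1.76 on the log2 scale (SE 0.264, adjusted p = 0.0395, limma), a fold of 3.39. It was the 1 member among 9 probe sets higher around dawn, 0.0774%, and no member was among the 4 lower around dawn, 0.0344%. With median centring 2 probe sets were higher and 0 lower, and nfil3-6 was not called (adjusted p = 0.0913, limma). With single arrays left out the call stood 2 of 12 times, without CT6 replicate 1 and without CT6 replicate 2 (adjusted p = 0.00726), and was lost without any array of the other circadian times, with the difference between 1.58 and 1.94. nfil3-5 (difference -1.75, adjusted p = 0.277), dbpa (0.89, adjusted p = 0.263) and tefa (0.48, adjusted p = 0.636, limma) did not pass.

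No member, and no probe set at all, differed in level between the cycles at the threshold (0 of 11625, 0.0%, by limma, with 829 at an unadjusted p under 0.05). The largest difference of a brighter member was that of nfil3-5, 0.69 on the log2 scale, second minus first (adjusted p = 0.690, limma). Likewise 0 probe sets, 0.0%, differed between the cycles in their 24-h terms (757 at an unadjusted p under 0.05, limma). The fitted change of nfil3-5 was 4.20 in the second cycle and 6.02 in the first (adjusted p = 0.766), and its peak lay at CT8.02 and CT7.25. For dbpa the changes were 3.07 in the second cycle and 3.41 in the first, with peaks at CT19.5 and CT19.0. nfil3-6 had 2.19 in the second cycle and 1.99 in the first, with peaks at CT22.8 and CT0.28, and tefa 0.91 and 1.44, with peaks at CT21.2 and CT19.1. These fits rest on 6 arrays a cycle and leave room for differences of this size.

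Correlations over the 12 arrays describe which profiles resembled each other. The arrays share depth of labelling, pool and time of day, so these values carry no test. dbpa correlated with nfil3-5 at r = -0.90 and with tefa at 0.77, and tefa with nfil3-5 at -0.78. nfil3-6 correlated weakly with each of them (0.37 with dbpa, 0.37 with tefa and -0.38 with nfil3-5). Without CT6 replicate 2 tefa correlated at 0.89 with dbpa and at -0.90 with nfil3-5.

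Among 8291 probe sets with 1 gene symbol, the profiles most like dbpa were those of bhlhe41 (r = 0.96), a bHLH repressor, ciarta (0.94), a repressor of the core clock, tob1b (0.93), the amino acid transporter gene slc38a4 (0.93) and rims2a (0.91), with fitted peaks between CT19.1 and CT20.1. The most opposite were zgc:152863 (-0.94), bmal1a (-0.91), the core activator, ptp4a3b (-0.91), nfil3-5 (-0.90) and coq8aa (-0.90). nfil3-5 was most like bmal1b (0.93), fbxl3a (0.93), the copy of an F-box gene whose product targets cryptochromes in mammals, ypel3 (0.89), coq8aa (0.89) and si:ch211-157b11.12 (0.86), with peaks between CT7.11 and CT8.81. Its most opposite profiles were ciarta (-0.93), dbpa (-0.90), arg2 (-0.90), bhlhe41 (-0.88) and slc38a4 (-0.88). Of all these genes, zgc:152863 (adjusted p = 0.0545), ptp4a3b (0.0717), coq8aa (0.0719), bmal1b (0.0981) and rims2a (0.0991, all limma) did not pass the 24-h test. With each array left out, the calls of ypel3, tob1b, arg2, si:ch211-157b11.12 and fbxl3a were lost 12, 11, 10, 9 and 7 times of 12. Those of ciarta, bhlhe41 and slc38a4 were kept each time.

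The profiles like nfil3-6 were others. They were crcp (r = 0.91), the retinol dehydrogenase family gene dhrs9 (0.89), cyp2p6 (0.88), nifk (0.87) and mycb (0.87), and its most opposite were pon2 (-0.88), mxra8a (-0.84), rad21a (-0.84), lgals3bp.1 (-0.84) and atg5 (-0.83). Of these 10 genes only dhrs9 (fold 2.81, peak at CT22.1) and mxra8a (fold 2.30, peak at CT11.4) passed the 24-h test (adjusted p = 0.0406 each, limma), and these calls were lost 9 times (dhrs9) and 10 times (mxra8a) of 12 with each array left out.

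The clock genes of the same loops were read from lists of known targets, with 1 probe set for each gene. Of the clock genes with D-boxes in mammals, 4 of 10 were tested and 1 passed, nr1d2b, a Rev-erb receptor gene, which changed 6.80-fold and peaked at CT20.6 (adjusted p = 0.00468, limma). per2 had a fold of 2.01 (adjusted p = 0.258), rorab 1.99 (adjusted p = 0.366) and nr1d2a 1.32 (adjusted p = 0.890, limma). The median log2 change of the 4 was 0.999, and that of all tested probe sets 0.487. Of 7 genes known for light induction through D-boxes in zebrafish, 5 were tested and 0 passed limma, with 1, per2, at an unadjusted p under 0.05. Over all 11625 probe sets 60 passed, 0.516%, and 1177 had an unadjusted p under 0.05 (limma). At that share 0 calls among 5 genes says little about them. The repair gene neil1 had a fold of 1.70, cry5 of 1.96 and cpdp of 1.33. The median change of the 5 was 0.763. Of the outputs of PAR bZIP factors in mouse, only alas1 was tested, with a fold of 1.28 (adjusted p = 0.837, limma).

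Genes with RRE elements, the sites of Rev-erb and Ror receptors at which Nfil3 itself is regulated in mammals, were read in the same way. Of 8 tested, 2 passed limma, against 0.516% of all tested probe sets. They were rorcb, a Ror receptor gene (fold 14.0, peak at CT6.00), and bmal1a (fold 10.7, peak at CT7.57), with an adjusted p of 0.0259 each. With an offset of 32 added before log2 these folds were 6.07 and 4.30. Their peak times were not tested against that of nfil3-5 (CT7.56). For bmal1b the fitted fold was 3.03 and the peak CT7.11 (adjusted p = 0.0981), and for cry1ab 2.97 and CT23.8 (adjusted p = 0.295, limma). With each array left out the calls of rorcb and bmal1a were lost 7 and 6 times of 12.

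Of 6 tested genes driven by E-boxes, the sites of the core activators, 4 passed: ciarta (fold 27.9, peak at CT20.1, adjusted p = 0.00026), bhlhe41 (15.4, CT20.0, 0.00144), nr1d2b (6.80, CT20.6, 0.00468) and bhlhe40 (21.3, CT23.0, 0.0181, all limma). The fold of ciarta was 14.97 with an offset of 32, and the call of bhlhe40 was lost without CT10 replicate 1, without CT10 replicate 2 and without a variance trend (adjusted p = 0.0665, limma), which left 3 calls. The 4 peaks lay within 4 h after that of dbpa, and bhlhe40 near that of nfil3-6. The call of nr1d2b is the one already counted in the D-box list, and per2, nr1d2a and nr1d2b were tested in both. Over all tested probe sets 0.516% passed. The median changes of the RRE and E-box lists were 1.58 and 3.35. Both lists, like the members, were drawn up with results of these arrays known.

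**Figure D5:**
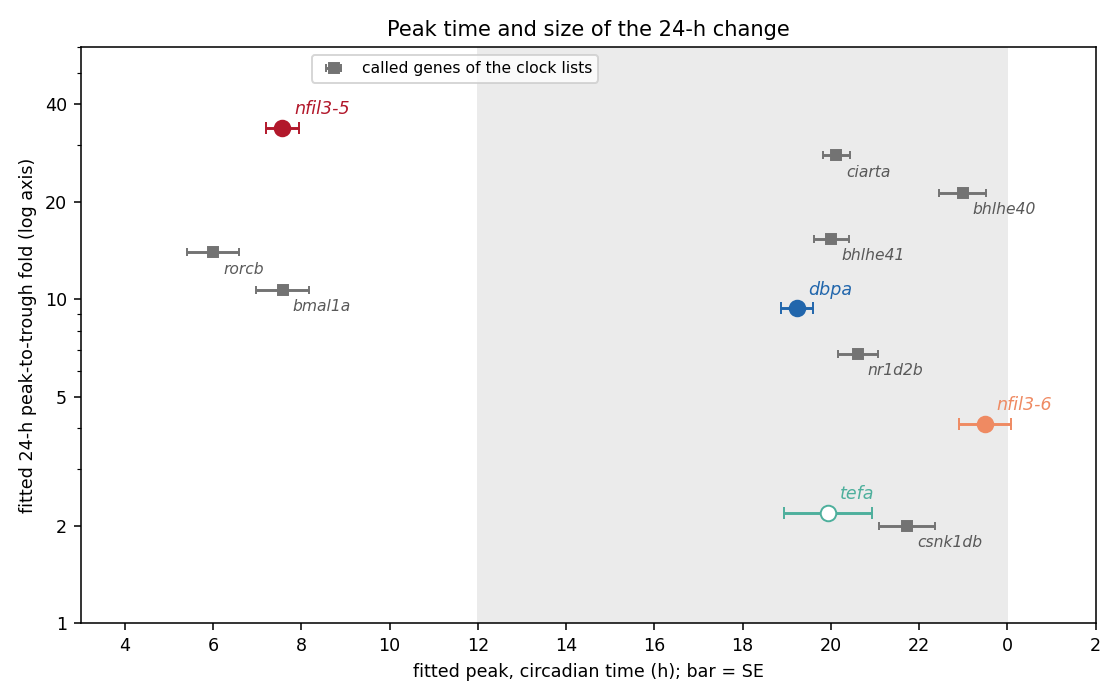
Fitted peak-to-trough fold (log axis) against fitted peak, in circadian time (h), with the SE of the peak as bars, for 4 members (circles, open where the 24-h test was not passed) and for genes of the clock and kinase lists that passed it (grey squares), with the subjective night shaded. On the deposited labels nfil3-5 (CT7.56) lies with bmal1a and rorcb in the day. dbpa (CT19.2), tefa (CT19.9) and nfil3-6 (CT23.5) lie with the E-box genes in the night on these labels.

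The measured genes of the family do not neighbour each other in the genome, but 1 of them neighbours a family gene without an annotated probe set. In the RefSeq gene table of the assembly GRCz12tu, nfil3-6 neighbours nfil3-2 on chromosome 3, and tefb lies on the same chromosome, while nfil3-5 lies on chromosome 6, tefa on 12 and dbpa on 19. Near-identical copies could share signal on 1 probe set, so the values of nfil3-5 and nfil3-6 may hold signal of copies that the array does not name, which was not tested.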

How the data were processed

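RNA of pooled zebrafish pineal glands was measured on 12 Affymetrix arrays. The authors deposited signal intensity on a linear scale, scaled for each array with GCOS, and the submitters' processing notes name GCOS and MAS5, whose versions are not given in the sources used here. Detection calls were not used here, so the background of a probe set is unknown, and the number of arrays limits the precision. The median deposited intensity was 71.0 to 95.4 for each array. The 115 control probe sets were left out. From the intensities, log2 values were taken and quantile normalization was applied, as in the study's methods (limma 3.58.1, R 4.3.3). A probe set was dropped if its maximum over the arrays fell within the lowest 25% of such maxima.

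A 24-h cosine and sine were fitted to all 12 arrays (lmFit, eBayes with trend, 9 residual degrees of freedom) and tested by the moderated F test, with Benjamini-Hochberg adjustment over all 11625 probe sets and a threshold of 0.05. A fold is fitted peak over trough. Contrasts used circadian time as a factor. Peak and size differences came from joint least-squares fits of 2 probe sets with their residual covariance, with 95% intervals and no p. The g-factor was compared with 1000 shuffles of each profile (numpy 2.4.6, Python 3.11.15). p-values weigh an effect against the residual spread of these arrays about its fit, moderated over probe sets. In the 24-h fit this spread also holds departures from the cosine shape. Scripts were tested on simulated profiles. Symbols came from the platform annotation, updated through RefSeq, with 1 symbol for 10795 probe sets.

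The members and gene lists were chosen with earlier results of these data known. Named genes are the members, the 5 most and 5 least correlated with each of dbpa, nfil3-5 and nfil3-6, and up to 4 of each list with the lowest p. Peak times follow the deposited labels. On these labels camk1gb was highest at CT2 (2089), 1 sampling interval before its maximum in the curve drawn by the study. The study's RNA-seq of other fish put the peaks of dbpa, nfil3-5 and nfil3-6 at CT22, CT10 and CT6. Earlier data on embryonic pineal glands listed by the study put them at CT22, CT10 to CT14 and CT2, the last in light and dark cycles. Here their mean levels were highest at CT18, CT6 and CT22. These times lie 1 sampling interval before the RNA-seq peaks for dbpa and nfil3-5, and further before for nfil3-6. The spacing of nfil3-6 from the other members thus also differs from that in the RNA-seq, and the cause was not tested. A shift shared by all arrays would leave the differences between peaks as they are, that spacing included. It would move every peak and change which arrays count as night, day, dawn or dusk. Alternatives were other normalizations, filters and offsets, no variance trend, 12-h terms, circadian time as a factor, the cycle as a block, a linear trend, and arrays left out. No sequence was read.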

Additional observations from a re-analysis of the deposited data

How the results depend on the processing

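The 24-h calls of dbpa and nfil3-5 held in all fits run (adjusted p up to 0.00911 and 0.0495, limma), and their fitted log2 changes stayed between 3.01 and 3.57 and between 4.63 and 5.46. The change of nfil3-6 stayed between 1.87 and 2.21, also with arrays left out, but its call was lost with median centring (1.90, adjusted p = 0.0611), eBayes without trend (2.05, 0.0831), the last 4 arrays left out (1.99, 0.0943) and a linear trend (2.05, 0.0501, all limma), and with circadian time as a factor. The 60 probe sets called over all became 29 with median centring, 17 without trend, 12 with circadian time as a factor, 103 at a false discovery rate of 0.10, 126 without the last 4 arrays and 27 with a linear trend. With 1 array left out they were 14 (without CT10 replicate 1) to 100 (without CT6 replicate 2), and moved by over 1.5 times except without CT2 replicate 2. The 16 night and day calls became 3 without trend and 3 to 35 with 1 array left out, and the 13 dawn and dusk calls 2 with median centring, 1 without trend and 1 to 38 with 1 array left out. The 0 calls between the cycles became 0 to 4, the 4 without CT22 replicate 2. Without trend nfil3-5 lost its night and day call (adjusted p = 0.111) and nfil3-6 its dawn and dusk call (0.164, limma). The Fourier list of 56 became 20 with median centring, 33 without a filter, 105 with the filter at 50% and 153 at a true-positive rate of 85%, and the last 2 held nfil3-6. It needs evenly spaced arrays and was not run with arrays left out. The cause of these changes was not tested. Peak and size differences moved by less than their SE with deposited values, median centring or 1 array left out. So did the changes of the ratios (SE 0.70 and 0.49) with the offset or 1 array left out. On these evenly spaced arrays 12-h terms could not move the peak differences. Size differences were not rerun with the offset, where the change of nfil3-5 was 4.63 and that of dbpa 3.09. With the cycle as a replicate block 53 probe sets had a rhythm, 17 differed between night and day and 17 between dawn and dusk, and no call of a member changed. The main fits did not treat the cycle number as a pairing. Deviations of 5 of 15 pairs of circadian times correlated above 0.1 (r from -0.30 to 0.22), which cannot exclude an effect shared by some arrays of a cycle. Of 1689 other values 162 lost and 19 gained a call, and 28 counts of called genes in a list moved. The other 1480 stayed on their side of the threshold or, for such counts, changed by at most 1.5 times. Among the last, 23 values of 8 results that were not called changed sign, and 0 called values did.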

Other observations

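Other bZIP factors were read from a separate list. Of 54 genes listed, 29 had a probe set, 27 were tested and 0 passed the 24-h test by limma, with 1 at an unadjusted p under 0.05. Over all 11625 probe sets 60 passed, 0.516%, and 1177 had an unadjusted p under 0.05 (limma). At that share 0 calls among 27 genes says little about them. Their median log2 change was 0.66, against 0.487 for all tested probe sets. The 4 with the lowest p were jun (fold 1.92, unadjusted p = 0.0348), cebpd (1.75, 0.0542), atf5a (2.98, 0.0563) and jdp2b (2.72, 0.0997), with fitted peaks between CT17.4 and CT18.4 (adjusted p from 0.460 to 0.564, limma).

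Of 7 tested kinase genes of the CK1, CK2 and GSK3 types, which modify clock proteins, csnk1db passed, changing 2.00-fold and peaking at CT21.7 (adjusted p = 0.0401, limma). The call was lost with 10 of the 12 arrays left out in turn. Over all tested probe sets 0.516% passed. For csnk1da the fold was 1.48 and the fitted peak CT21.9 (adjusted p = 0.527, limma).

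A further probe set annotated to nfil3-6 is not named by the rule for the members. It was dim, with intensities of 6.18 to 47.4, and did not pass the filter.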
